A study of Danio rerio with 2 samples.

Results

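The genes described here encode the kinases of the mitogen-activated protein (MAP) kinase cascades, a wider set of serine/threonine kinases, and the protein phosphatases that oppose them. They were read from messenger RNA profiles of whole Tuebingen zebrafish embryos collected at 4.7 h after fertilization, when the embryo is a late blastula. The phf14 morpholino embryos had received 5 ng of a phf14 morpholino, an antisense oligomer against the transcript of the histone H3-binding protein PHF14, and the control embryos had received 5 ng of a standard morpholino. Both injections were made at the 1-cell stage. Each group was represented by 1 library, so every difference below lies between 2 libraries, has no replicate check and carries no p-value. phf14 itself was not analysed here and the knockdown was not checked, and off-target effects of the phf14 morpholino cannot be told apart from loss of PHF14.

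Members were chosen by the start of their gene symbol (mapk, map2k to map4k, dusp, ppp, ppm1, ptpn and ptpr, and the kinase families stk, rps6k, prka, prkc, camk, csnk, gsk3, akt and pak), leaving out dusp4. Of the 4591 listed genes 65 matched, and the 51 with a mean of at least 1 over both libraries are the members. The other 14 fell below that mean. The same filter kept 3524 genes in all, and shares of all genes below refer to these. Many genes are not listed: of 32 Ras and Raf gene symbols looked up, 8 were found. How the listed genes were chosen is not known here, so absence of a gene does not mean that it was not expressed. The members comprise 10 genes of the MAP kinase cascade, 4 dual-specificity phosphatases, 13 subunits of the PPP family, 6 protein tyrosine phosphatases and 18 other kinases. The symbol rule also takes in proteins that are not enzymes, such as the regulatory subunits and pak1ip1, which encodes a PAK1-binding protein with a role in ribosome assembly. Just outside the filter lay ppp2r5ca (mean 0.970) and akt3a (0.915), and just inside it lay dusp12 (1.065) and dusp27 (1.095).

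A MAP kinase cascade is a relay in which a MAP kinase kinase kinase activates a MAP kinase kinase, which in turn activates a MAP kinase: ERK, mostly downstream of growth factors such as FGF, or p38 and JNK, mostly downstream of stress and morphogenetic signals. Some dual-specificity phosphatases switch MAP kinases off by removing both activating phosphates. Phosphatases of the PPP family act through a few catalytic subunits whose targets are set by many regulatory subunits, and protein tyrosine phosphatases reverse tyrosine phosphorylation. In the early fish embryo FGF and ERK signalling helps to form mesoderm, and the oocyte supplies many kinase and phosphatase transcripts.

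The values are the authors' deposited expression signal, whose scale is not stated, so the level of a named gene is not compared with that of another, and means are used only to filter and bin genes. Differences are log2 ratios (phf14 over standard morpholino) after adding 1 to each value, which understates the difference of genes with low values. The listed values summed to 71136 in the phf14 morpholino library and 75675 in the standard morpholino library. The depth of sequencing is unknown. The median gene had a log2 ratio of 0.11, so a ratio near 0.11 means no displacement from the other genes, and values relative to the median gene are given where this matters. Of marker genes, all 16 enveloping layer genes (summed values 2039.53 in the phf14 morpholino and 2536.66 in the standard morpholino library) and all 9 yolk syncytial layer genes (1375.18 in the phf14 and 1744.73 in the standard morpholino library) that passed the filter were lower in the phf14 morpholino library. All 6 germ plasm genes were higher (64.01 in the phf14 and 48.4 in the standard morpholino library), or 5 of 6 relative to the median gene. Relative to genes of like level 15 of the 16 enveloping layer genes were lower. No listed marker of these cell types was at 0. Among zygotic activation genes 17 of 19 were lower, or 14 of 19 relative to genes of like level. Their summed values were 1511.85 in the phf14 and 1771.09 in the standard morpholino library. Of the 17, cdx4 had 0.97 in the phf14 and 1.78 in the standard morpholino library. It passed the filter only through the library where it is high, so its place among the lower genes is no support. Oocyte transcripts were higher in 12 of 13 cases, or 11 of 13 relative to genes of like level. Their sums were 696.26 in the phf14 and 515.9 in the standard morpholino library. Of all 3524 genes 62.3% were higher and 1312 were lower. The sums are led by genes with high values, such as apoeb in the yolk syncytial layer sum (1089.79 in the phf14 and 1355.46 in the standard morpholino library). Some lists share genes and so are not separate observations. The gene buc (18.52 in the phf14 and 10.9 in the standard morpholino library) is in the germ plasm and oocyte lists. apoc2 (8.56 in the phf14 and 19.06 in the standard morpholino library) is in the yolk syncytial layer and zygotic lists. The part of these shifts in the results below was not tested, and in whole embryos fewer cells of a type cannot be told apart from less RNA per cell.

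Kinase and phosphatase genes as a whole differed little between the libraries. Of the 51 members 32 were higher, 18 lower and 1 equal in the phf14 morpholino library, a share of 62.7% higher, where 62.3% of all genes were higher. Relative to the median gene 27 were higher and 24 lower. Their median log2 ratio was 0.13, against 0.11 for all genes, and their SD was 0.29, against 0.35. A 1.5-fold difference was reached upward by 4 members (7.84%), with a background of 4.97% of all genes, and downward by 0 members, with a background of 2.87%. The 4 were map4k5, prkcda, ppp1r12c and ppp1r15b. After centring on the median gene the split was 2 higher (map4k5 and prkcda) and 1 lower (mapkapk3), where 2.36% of all genes were higher and 4.97% lower. At 2-fold, with backgrounds of 0.341% higher and 0.482% lower, 0 members passed in either direction. Kinase members (28 genes, median 0.14) and phosphatase members (23 genes, median 0.13) had nearly the same median.

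**Figure D1:**
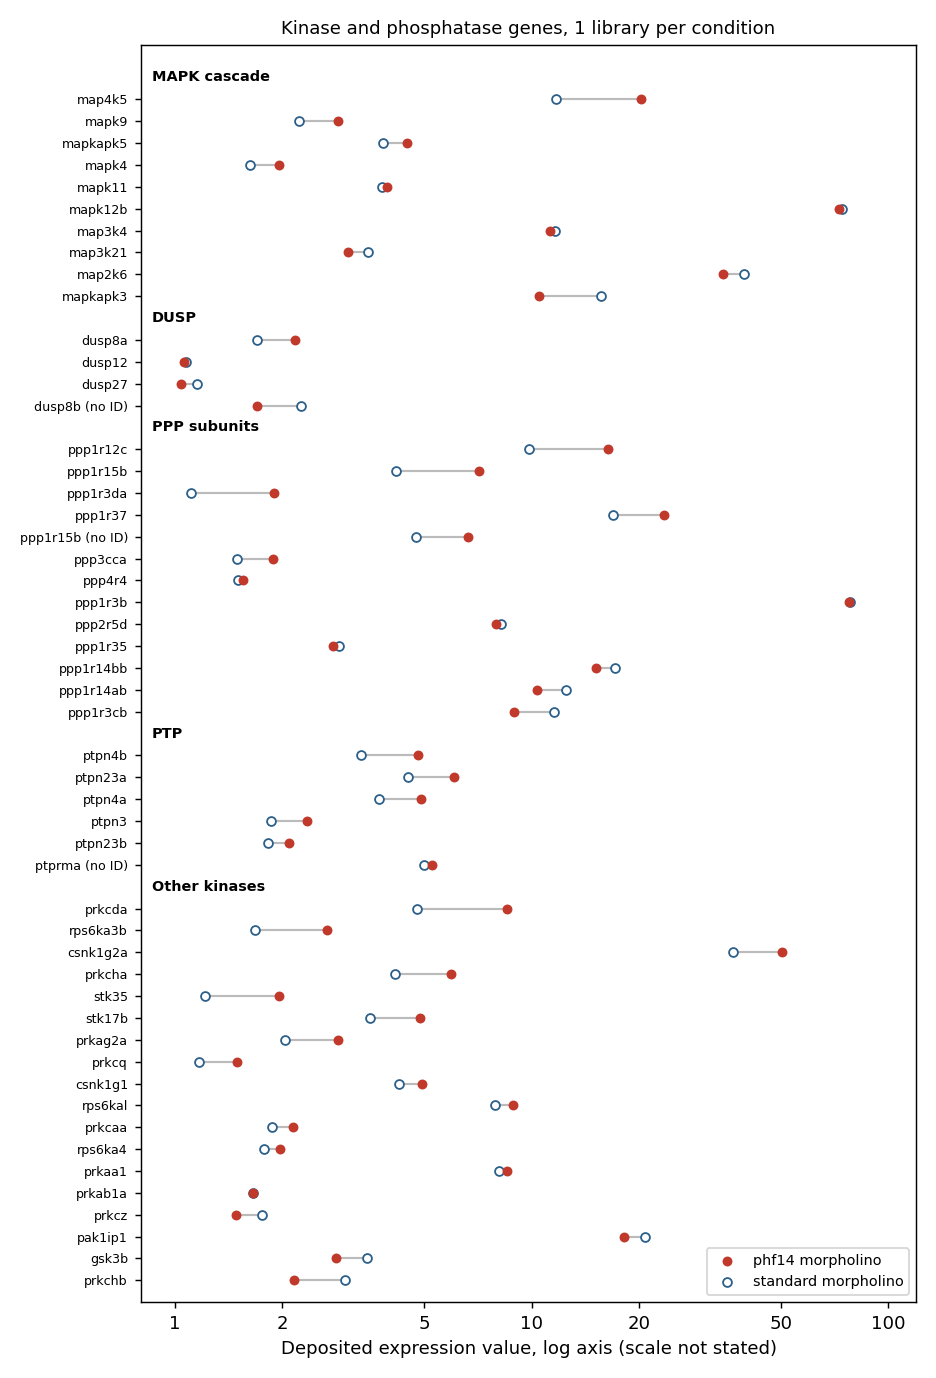
Deposited expression value (log axis, scale not stated) of the 51 members in the phf14 morpholino library (filled red) and the standard morpholino library (open blue), grouped by family and ordered by log2 ratio, with 1 library per condition. The widest gaps are those of prkcda, map4k5, ppp1r3da, ppp1r15b and ppp1r12c, while mapk12b and ppp1r3b nearly coincide.

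In the MAP kinase cascade 5 of 10 genes were higher and 5 lower, with a median log2 ratio of 0.0035, or 4 higher and 6 lower relative to the median gene. At the entry of the cascades, map4k5 (ENSDARG00000039125), a germinal centre kinase that acts upstream of JNK, had 20.31 in the phf14 morpholino and 11.69 in the standard morpholino library, a log2 ratio of 0.75. Of all genes 1.45% had as high a ratio. The MAP kinase kinase kinases among the members, map3k4 and map3k21, did not share this excess. Another, map3k2, fell below the filter, with 0.48 in the phf14 morpholino and 0.32 in the standard morpholino library. map3k4 (ENSDARG00000104835), which feeds p38 and JNK, had 11.27 in the phf14 morpholino and 11.59 in the standard morpholino library (log2 ratio -0.04). The mixed-lineage kinase gene map3k21 (ENSDARG00000079473) had 3.05 in phf14 and 3.48 in standard morpholino embryos (-0.15).

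The p38 branch could be followed in part, from the MAP kinase kinase to the kinases that p38 itself activates. map2k6 (ENSDARG00000099184), which activates p38, had 34.49 in the phf14 morpholino and 39.35 in the standard morpholino library (log2 ratio -0.19). Relative to the median gene map2k6 was at -0.29. Relative to genes of its own level it was at -0.03, close to them, so its distance depends on the scaling. The p38 genes among the members, mapk12b and mapk11, were close to level. No other p38 gene, such as that of p38 alpha, is among the members. mapk12b (ENSDARG00000006409, p38 gamma) had 72.96 in the phf14 morpholino and 74.29 in the standard morpholino library (-0.03), and mapk11 (ENSDARG00000045836, p38 beta) had 3.92 in phf14 and 3.81 in standard morpholino embryos (0.03). The sign of both depends on the scaling: relative to the median gene mapk11 was below 0, and relative to genes of its own level mapk12b was above 0. The p38-activated kinase gene mapkapk3 (ENSDARG00000111612) was the lowest of all members, with 10.50 in the phf14 morpholino and 15.69 in the standard morpholino library (log2 ratio -0.54), and 3.63% of all genes had as low a ratio. Relative to the median gene its ratio was -0.65, past 1.5-fold. mapkapk5 (ENSDARG00000028082), a related kinase that also binds atypical MAP kinases, lay on the other side at 4.48 in phf14 and 3.82 in standard morpholino embryos (0.19). The 5 members of the branch thus ran from -0.54 to 0.19, with a median of -0.03.

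The remaining MAP kinases were slightly higher. mapk9 (ENSDARG00000077364), a JNK gene, had 2.86 in the phf14 morpholino and 2.22 in the standard morpholino library (log2 ratio 0.26), and mapk4 (ENSDARG00000110581), an atypical MAP kinase, had 1.96 in phf14 and 1.62 in standard morpholino embryos (0.18). Relative to genes of their own level these came to 0.10 and 0.04. The classical ERK genes were not analysed here.

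The 4 dual-specificity phosphatases had a median log2 ratio of -0.04, with 1 higher and 3 lower. dusp8a (ENSDARG00000009299) and dusp8b (listed without an identifier) encode phosphatases that act on JNK and p38, and they lay on opposite sides. dusp8a had 2.17 in the phf14 morpholino and 1.70 in the standard morpholino library (0.23), whereas dusp8b had 1.70 in phf14 and 2.25 in standard morpholino embryos (-0.27). The atypical phosphatase gene dusp12 (ENSDARG00000076330) had 1.06 in phf14 and 1.07 in standard morpholino embryos (-0.007). dusp27 (ENSDARG00000099889), which the zebrafish embryo later needs for muscle fibre assembly, had 1.04 in phf14 and 1.15 in standard morpholino embryos (-0.08). The reference's list of gene names gives dusp27 as STYXL2, and whether its product is an active phosphatase was not examined. Of the dual-specificity genes outside the members, the ERK feedback gene dusp4 had 31.37 in the phf14 morpholino and 45.77 in the standard morpholino library (log2 ratio -0.53), below all 4. All 4 members had values of at most 2.25 in both libraries, where a small absolute difference moves the ratio.

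**Figure D2:**
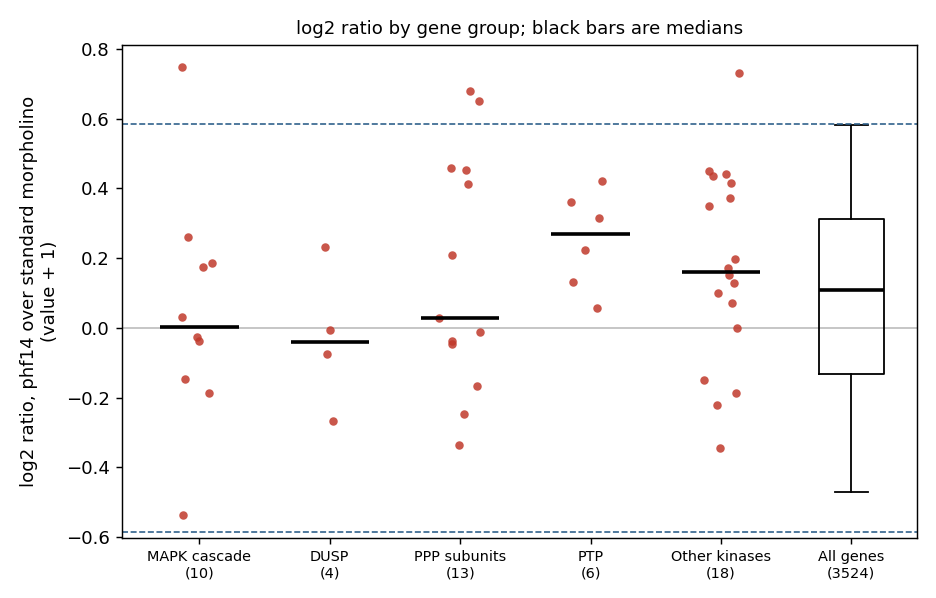
log2 ratio, phf14 over standard morpholino (value + 1), for each member by group, with group medians as black bars, and for all 3524 genes as a box (quartiles, whiskers at the 5th and 95th percentiles); numbers of genes stand in brackets and dashed lines mark 1.5-fold. The 6 tyrosine phosphatase genes (PTP) all lie above 0 with a median of 0.27, and the dual-specificity genes (DUSP) have a median of -0.04; the members lie mostly inside the whiskers of all genes.

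In the PPP family, of 13 genes 7 were higher and 6 lower, with a median log2 ratio of 0.03, below that of the median gene (6 higher and 7 lower relative to it), and 2 passed 1.5-fold upward, where 4.97% of all genes did. These counts are of table lines and include ppp1r15b on 2 lines. Nearly all were regulatory subunits, and 10 of the lines belong to protein phosphatase 1 (PP1). ppp1r12c (ENSDARG00000052423), which encodes a subunit that targets PP1 to myosin, had 16.33 in the phf14 morpholino and 9.83 in the standard morpholino library (log2 ratio 0.68), and 2.70% of all genes had as high a ratio. Genes for small inhibitors of myosin phosphatase lay the other way: ppp1r14ab (ENSDARG00000017710) had 10.33 in phf14 and 12.45 in standard morpholino embryos (-0.25). ppp1r14bb (ENSDARG00000030161) had 15.16 in phf14 and 17.12 in standard morpholino embryos (-0.17). The targeting subunit and both inhibitor genes thus differed in sign.

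ppp1r15b encodes the subunit that directs PP1 to the initiation factor eIF2 alpha and so sustains translation. The table holds it on 2 lines, and both were higher in the phf14 morpholino library. The line with an identifier (ENSDARG00000068128) had 7.12 in the phf14 morpholino and 4.17 in the standard morpholino library (log2 ratio 0.65). The line without an identifier had 6.62 in phf14 and 4.73 in standard morpholino embryos (0.41). How reads were shared between these lines is not stated in the labels or tables, so whether they are independent measurements is unknown.

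Subunits that bring PP1 to glycogen did not move together. ppp1r3b (ENSDARG00000044691) had 77.57 in the phf14 morpholino and 78.28 in the standard morpholino library, a log2 ratio of -0.01, or 0.14 relative to genes of its own level. ppp1r3cb (ENSDARG00000014554) was the lowest of the PPP group with 8.93 in phf14 and 11.52 in standard morpholino embryos (-0.33). ppp1r3da (ENSDARG00000077513) was higher with 1.90 in phf14 and 1.11 in standard morpholino embryos (0.46), at values so low that its ratio ran from 0.18 to 0.73 over the alternative settings. Of the other PP1 subunits, ppp1r37 (ENSDARG00000078458) had 23.49 in the phf14 morpholino and 16.90 in the standard morpholino library (0.45), and ppp1r35, which acts in centriole elongation, had 2.77 in phf14 and 2.89 in standard morpholino embryos (-0.05).

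The other PPP phosphatases had log2 ratios from -0.04 to 0.21. ppp3cca (ENSDARG00000014962), a catalytic subunit of the calcium-dependent phosphatase calcineurin and the single PPP catalytic subunit among the members, had 1.88 in the phf14 morpholino and 1.49 in the standard morpholino library (log2 ratio 0.21). The regulatory subunit genes ppp2r5d (of PP2A) and ppp4r4 (of PP4) had ratios of -0.04 and 0.03.

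Protein tyrosine phosphatases had 6 of 6 genes higher, against 62.3% of all genes and 68.0% of those with a mean under 10. The group had a median log2 ratio of 0.27, although 0 of the 6 reached 1.5-fold, where 4.97% of all genes did so upward. Relative to the median gene 5 were higher, with a median of 0.16. Their SD of 0.14 was the smallest of the 5 groups, the others having 0.21 to 0.34. The related genes ptpn3, ptpn4a and ptpn4b encode phosphatases with a FERM and a PDZ domain, which attach them to membrane and cytoskeleton. ptpn4b (ENSDARG00000000183) had 4.80 in the phf14 morpholino and 3.33 in the standard morpholino library (0.42). ptpn4a (ENSDARG00000000631) had 4.90 in phf14 and 3.74 in standard morpholino embryos (0.32). ptpn3 (ENSDARG00000055784) had 2.34 in phf14 and 1.86 in standard morpholino embryos (0.22), so all 3 were above the median gene. ptpn23a (ENSDARG00000070124) and ptpn23b (ENSDARG00000098689) encode an endosomal sorting protein. ptpn23a had 6.06 in the phf14 morpholino and 4.50 in the standard morpholino library (0.36), and ptpn23b had 2.09 in phf14 and 1.82 in standard morpholino embryos (0.13). The receptor phosphatase gene ptprma (without an identifier), whose product mediates adhesion between cells, was nearest to level with 5.24 in phf14 and 5.00 in standard morpholino embryos (0.06), and it was below 0 after centring on the median gene. Relative to genes of like level 4 of the 6 were higher, with a median of 0.10. The filter had left out 3 further genes of this group.

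Of the 18 other kinases 13 were higher, 4 lower and 1 equal, with a median log2 ratio of 0.16. Relative to the median gene 11 were higher and 7 lower (median 0.05), and relative to genes of like level 9 were higher and 9 lower (median 0.0019). Protein kinase C genes held both ends of the group. prkcda (ENSDARG00000009208), which encodes the delta isoform, had 8.55 in the phf14 morpholino and 4.76 in the standard morpholino library (log2 ratio 0.73), and 1.65% of all genes had as high a ratio. The eta isoform is encoded by a pair of genes on opposite sides: prkcha (ENSDARG00000018382) had 5.95 in phf14 and 4.14 in standard morpholino embryos (0.44), and prkchb (ENSDARG00000043243) had 2.15 in phf14 and 3.0 in standard morpholino embryos (-0.34), the lowest of the group. Isoforms theta (prkcq, 0.20) and alpha (prkcaa, 0.13) lay near the median gene, and the atypical isoform gene prkcz, whose product acts in cell polarity, was at -0.15. The 6 protein kinase C genes had a median of 0.16.

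Kinases of the ribosomal S6 family, which ERK or p38 activate, were higher in 3 of 3 cases, or 2 of 3 relative to the median gene. rps6ka3b (ENSDARG00000057927) had 2.66 in the phf14 morpholino and 1.68 in the standard morpholino library (log2 ratio 0.45), while rps6kal (0.15) and rps6ka4 (0.10) were next to the median gene. The subunits of the energy sensor AMPK went from 0 to 0.35. Its catalytic subunit gene prkaa1 had 8.54 in the phf14 morpholino and 8.08 in the standard morpholino library (0.07). The subunit genes prkab1a, with 1.65 in both libraries, and prkag2a, with 2.86 in phf14 and 2.03 in standard morpholino embryos (0.35), mark the ends of that range.

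Kinases that act on Wnt signalling differed in sign. csnk1g2a (ENSDARG00000005458), a membrane-bound casein kinase 1, had 50.30 in the phf14 morpholino and 36.80 in the standard morpholino library (log2 ratio 0.44). Genes of its level had a median of -0.15, so it lay 0.59 above them, past 1.5-fold on that scale. The related gene csnk1g1 had 4.91 in phf14 and 4.25 in standard morpholino embryos (0.17). gsk3b (ENSDARG00000017803), which marks beta-catenin for destruction, had 2.82 in the phf14 morpholino and 3.45 in the standard morpholino library (-0.22). The serine/threonine kinase genes stk35 (0.42) and stk17b (0.37) were higher, and pak1ip1 (ENSDARG00000044488) was lower, at 18.16 in phf14 and 20.81 in standard morpholino embryos (-0.19).

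The ratios of the members were also split by level, as for all genes. The 38 members with a mean under 10 had a median log2 ratio of 0.17, against 0.14 for the 2520 genes of that range, and 28 of them (73.7%) were higher, against 68.0%. The 13 members with a mean of at least 10 had a median of -0.04, against -0.01 for 1004 genes, and 4 (30.8%) were higher, against 48.2%. These 13 include both ends of the distribution, map4k5 and mapkapk3, and their SD was 0.40, against 0.34 for the 1004 genes. In the highest of 10 equal bins of level stood map2k6, mapk12b, ppp1r3b and csnk1g2a.

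**Figure D3:**
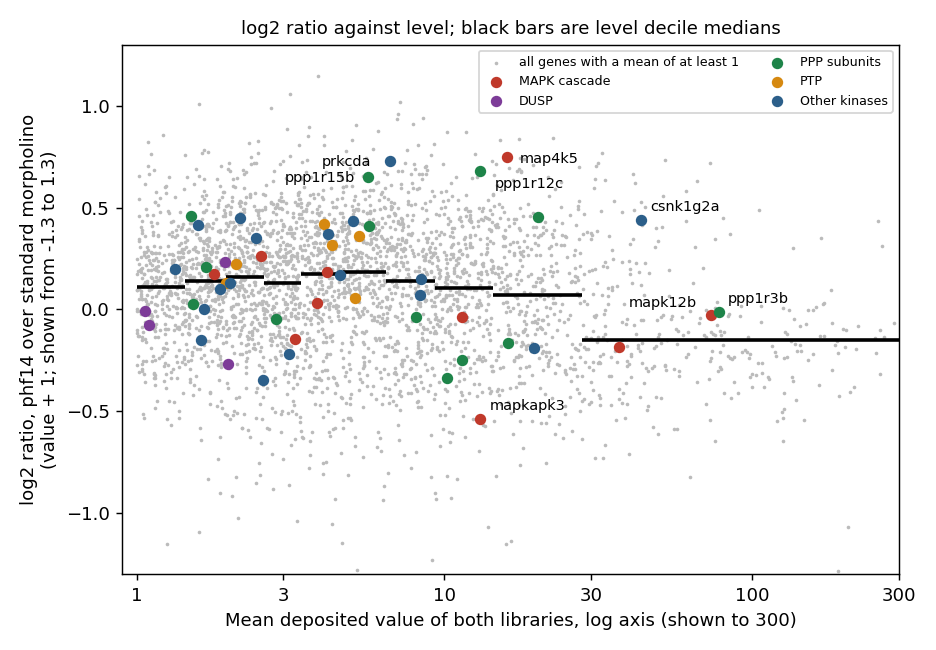
log2 ratio, phf14 over standard morpholino (value + 1), against the mean deposited value of both libraries (log axis), with members coloured by group, all genes in grey and the medians of 10 level bins as black bars; 10 genes lie beyond the plotted ratios and 30 beyond the plotted levels. The median of the top bin is -0.15, and csnk1g2a stands above it at 0.44.

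Duplicated genes allow a comparison within a family. Among genes passing the filter, 88 pairs had symbols that differ only in a final a and b, and the copies lay on opposite sides of 0 in 32 of them (36.4%). Of the 4 member pairs 2 did so, prkcha with prkchb and dusp8a with dusp8b. The prkch copies were 0.78 apart on the log2 scale, a distance that 10.2% of all pairs reached, and the dusp8 copies were 0.50 apart (27.3% of pairs). The copies of ptpn23 (0.23 apart) and ptpn4 (0.11) were closer than the median pair (0.29). How reads that match both copies were assigned is not stated in the labels or tables.

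Genes of the neighbouring pathway steps were compared from lists chosen with earlier results of these data known. Of all genes 62.3% were higher, and 4.97% passed 1.5-fold upward and 2.87% downward. Upstream, 8 of 11 receptor tyrosine kinase and FGF genes were lower, with a median log2 ratio of -0.25. After adding 1 to each value 0 were past 1.5-fold, although the deposited values of fgfr2 and erbb2 differ by more than that. Relative to genes of like level 7 of 11 were lower, with a median of -0.10. Of the 8, erbb3a had 0.87 in the phf14 morpholino and 1.23 in the standard morpholino library. It passed the filter only through the library where it is high, so its place among the lower genes is no support. The FGF receptor gene fgfr2 had 1.54 in the phf14 morpholino and 2.59 in the standard morpholino library (-0.50), and the ErbB receptor gene erbb2 had 2.12 in phf14 and 3.37 in standard morpholino embryos (-0.49). The insulin receptor gene insrb, with 4.44 in phf14 and 3.48 in standard morpholino embryos (0.28), was at the other end. These genes lay mostly below the median gene of 0.11.

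At the Ras and Raf steps 5 of 7 genes were higher (median 0.27, 0 past 1.5-fold), and again 5 of 7 relative to the median gene (median 0.16) and to genes of like level (0.092). The exchange factor gene sos2 had 7.13 in the phf14 morpholino and 5.38 in the standard morpholino library (log2 ratio 0.35), and the kinase gene raf1a had 4.19 in phf14 and 3.31 in standard morpholino embryos (0.27). The Ras inhibitor gene rasa1a was higher too, with 14.49 in phf14 and 11.81 in standard morpholino embryos (0.27), so the higher genes include activators and an inhibitor. kras, with 13.73 in phf14 and 14.48 in standard morpholino embryos (-0.07), and frs2a, the FGF receptor adaptor gene, with 7.60 in phf14 and 9.10 in standard morpholino embryos (-0.23), were the 2 lower. Feedback and target genes of ERK were spread around 0, with 6 of 10 higher, a median of 0.06 and 0 past 1.5-fold, or 4 of 10 higher relative to the median gene. They ran from the inhibitor gene spry1, with 11.23 in the phf14 morpholino and 15.19 in the standard morpholino library (-0.40), to the transcription factor gene etv5a, with 22.38 in phf14 and 17.76 in standard morpholino embryos (0.32). Between these lay spry2 (-0.18), etv4 (-0.12), elk3 (-0.02), spred1 (0.06), elk1 (0.07), ier2b (0.12), junbb (0.19) and jund (0.27). The ERK feedback gene dusp4, at -0.53, was not on this list.

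Of the 37 genes on the PI3K and TOR list 13 were present in the data and 10 passed the filter. All 10 were higher, against 62.3% of all genes, with a median log2 ratio of 0.30. A 1.5-fold difference was passed upward by 1 of them, where 4.97% of all genes did so. All 10 were also higher relative to the median gene (median 0.19), after scaling by a trimmed mean of the ratios (0.18) and relative to genes of like level (0.22). These scalings use the same libraries and are not a replicate check. The gene past 1.5-fold, the PI3K catalytic gene pik3cd, had low values of 1.5 in the phf14 morpholino and 0.63 in the standard morpholino library (0.62). Its standard morpholino value is below 1, so it passed the filter only through the library where it is high. Its place among the higher genes is therefore no support. Of the list genes with a mean of at least 5, 5 of 5 were higher (median 0.36). The list held activators and inhibitors of the pathway alike. Those higher include rragca, a GTPase gene of the amino acid input to TOR, with 8.53 in phf14 and 5.97 in standard morpholino embryos (0.45), the translation repressor gene eif4ebp2, with 27.20 in phf14 and 20.91 in standard morpholino embryos (0.36), and the TOR inhibitor gene tsc1a, with 53.41 in phf14 and 42.98 in standard morpholino embryos (0.31). The list of protein kinase A anchoring and cyclic AMP turnover also held the transcriptional coactivator gene crebbpa (0.12). Genes of this list were higher in 7 of 7 cases (median 0.16, 0 past 1.5-fold). However, only 6 of 7 were higher relative to the median gene and 4 of 7 relative to genes of like level. They ran from adcy9 (0.10) to the adenylyl cyclase gene adcy5, with 8.45 in the phf14 morpholino and 5.69 in the standard morpholino library (0.50).

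**Figure D4:**
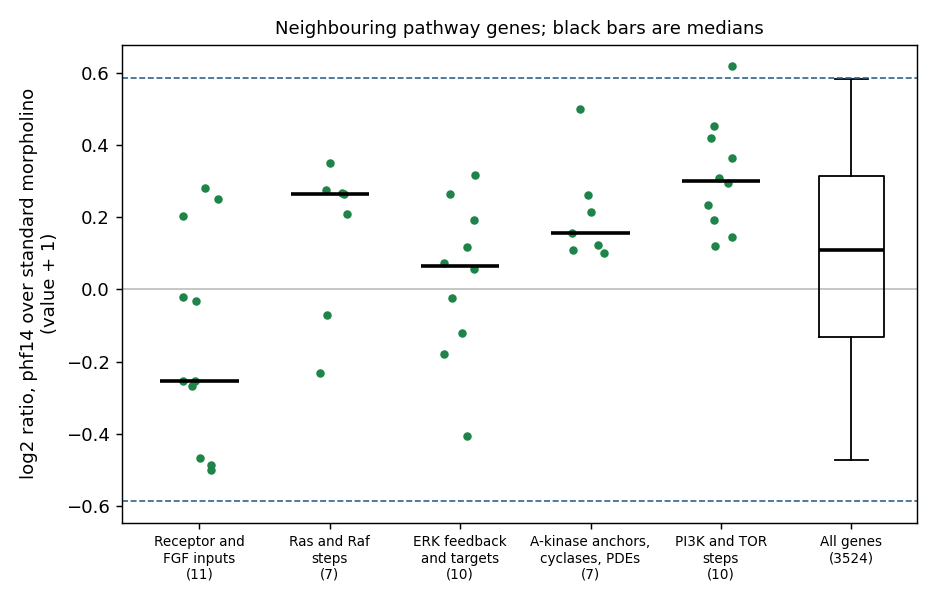
log2 ratio, phf14 over standard morpholino (value + 1), for genes of 5 neighbouring pathway lists, none of them a member, with list medians as black bars, and for all 3524 genes as a box (quartiles, whiskers at the 5th and 95th percentiles); dashed lines mark 1.5-fold. Receptor and FGF genes have a median of -0.25, whereas PI3K and TOR genes all lie above 0 with a median of 0.30. The lists were chosen with earlier results of these data known.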

How the data were processed

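Library construction used 1 ug of RNA and the TruSeq chemistry, per the labels' protocols. For each library the authors deposited an expression signal per gene, written to at most 2 decimals; neither its scale nor the aligner, genome build or counting tool is stated in the labels or tables. Values below 1 use nearly every hundredth (99 in the phf14 morpholino library and 98 in the standard morpholino library), so no read unit could be recovered and the depth is unknown. Of the 51 members 48 carry an Ensembl identifier, all of them present in the reference's list of gene names; names are those of the deposited tables.

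Log2 ratios with a pseudocount of 1 were computed in Python 3.11.15 with pandas 2.3.3 for genes with a mean of at least 1. With 1 library per group no test was made, and 1.5-fold served as a descriptive threshold. The calculation was run on simulated data, with changes placed only in genes with values of at least 10. That run does not measure how reliable the 1.5-fold counts are here. Members and gene lists were chosen with earlier results of these data known. Genes named first were every dual-specificity gene, MAP kinase and PPP catalytic subunit, each member past 1.5-fold, and, in each of the 5 groups, the 3 highest and 3 lowest ratios and 2 highest means (34 genes); other members and list genes were named after their values were seen. Alternatives were a pseudocount of 0.1 or 5, subtracting the median gene, scaling by a trimmed mean of log2 ratios (trims of 30% on the ratio and 5% on the level), a minimum mean of 5 or none, 2-fold, group means and, chosen after seeing the data, subtracting the median of each of 10 bins of level.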

Additional observations from a re-analysis of the deposited data

How the results depend on the processing

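Counts past 1.5-fold, 4 higher and 0 lower members, depended on the settings. Higher members numbered 7 with a pseudocount of 0.1 (11.2% of all genes), 1 (map4k5) with a pseudocount of 5 (0.880%), and 0 at 2-fold (0.341%). Centring on the median gene and the trimmed mean factor (0.14 on the log2 scale) each gave 2 higher and 1 lower (2.36% and 4.97% of all genes when centred, 2.16% and 5.19% with the factor), and centring on the median of the level decile, chosen after seeing the data, gave 3 higher and 1 lower (2.61% and 5.05%). The lower member was mapkapk3 each time.

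Group medians moved too, some of them through 0. That of the MAPK cascade (0.0035) was 0.007 and -0.0033 with pseudocounts of 0.1 and 5, -0.11 centred on the median gene, -0.12 with the trimmed mean factor, 0.033 with no filter, -0.037 with a mean of at least 5, -0.012 centred by level and 0.047 as a mean. That of the PPP subunits (0.03) was 0.044 and 0.011 with those pseudocounts, -0.081 centred on the median gene, -0.056 with the trimmed mean factor, -0.013 with a mean of at least 5, 0.069 centred by level and 0.16 as a mean. That of the dual-specificity genes (-0.04) kept its sign, at -0.073 and -0.014 with those pseudocounts, -0.15 centred on the median gene, -0.11 with the factor, -0.024 with no filter and -0.15 centred by level; 0 of its genes had a mean of at least 5. The tyrosine phosphatase median (0.27) was 0.14 with a pseudocount of 5, 0.16 under both scalings and 0.10 centred by level. The other kinases (0.16) had 0.086 with a pseudocount of 5, 0.051 centred on the median gene, 0.044 with the factor, 0.29 with a mean of at least 5 (6 genes) and 0.0019 centred by level. Why they moved was not tested. Among the 34 named genes 5 took the other sign under a setting, all within 0.14 of 0 in the deposited scaling.

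No paired analysis was possible because there is 1 library in each group, and for that reason none was left out in turn. Neither depth nor the spread between libraries is known.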
